A study of Mus musculus with 6 samples.

Results

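The 10 genes described here encode the transcription factor NRF2 (Nfe2l2) and 9 enzymes and effectors that are standard readouts of it, Nqo1, Hmox1, Gclc, Gclm, Srxn1, Txnrd1, Gsr, Me1 and Osgin1. They were picked by gene name among the 54146 genes of the table, with earlier results of these data known. All 10 were among the 12301 genes tested, and none was listed below 3.93 TPM in any library. TPM is a share of transcripts: reads are divided by transcript length and brought to one fixed sum per library. D2A1, an established mouse mammary tumor cell line, was grown in 3D Matrigel culture with 10% serum and treated with recombinant SLURP1 (rSLURP1) or, as the control protein, recombinant GST (rGST). Each protein was used at 50 nM by the labels, and the study's methods give harvest on day 5. All carry the genotype label Control. There were 3 RNAseq libraries per treatment. The labels do not say whether these came from separate cultures, so p-values measure the spread between libraries, which may be technical.

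NRF2 is held low by KEAP1, which presents it to a CUL3 ubiquitin ligase for degradation. Oxidants and electrophiles modify KEAP1, NRF2 then accumulates without needing more of its own mRNA, and with small MAF proteins it binds antioxidant response elements. Its targets make glutathione, reduce oxidized thiols, supply NADPH and detoxify quinones, and several of them are also driven by other factors, such as BACH1 for Hmox1 and ATF4 for cystine import. In tumors the pathway is known for protecting cells from oxidants and drugs.

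With rSLURP1 the 10 genes were not called in 1 direction. Hmox1 and Nqo1 were about 2-fold higher in TPM, Gclm and Me1 rose slightly, and Nfe2l2 itself fell to 0.69 of its rGST level, as Osgin1 did to 0.71. Gclc, Srxn1, Txnrd1 and Gsr did not pass the test. In limma on log2(TPM + 1), with an adjusted p-value of 0.05 or less as the threshold, 4 of the 10 were higher and 2 lower. Of all tested genes, 8.66% were higher and 58.5% lower by the same rule (67.2% in either direction), and the median log2 fold change of all tested genes was -0.33, against 0.03 for the 10. As TPM is a share of a fixed sum, calls are also given below after another scaling.

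**Figure D1:**
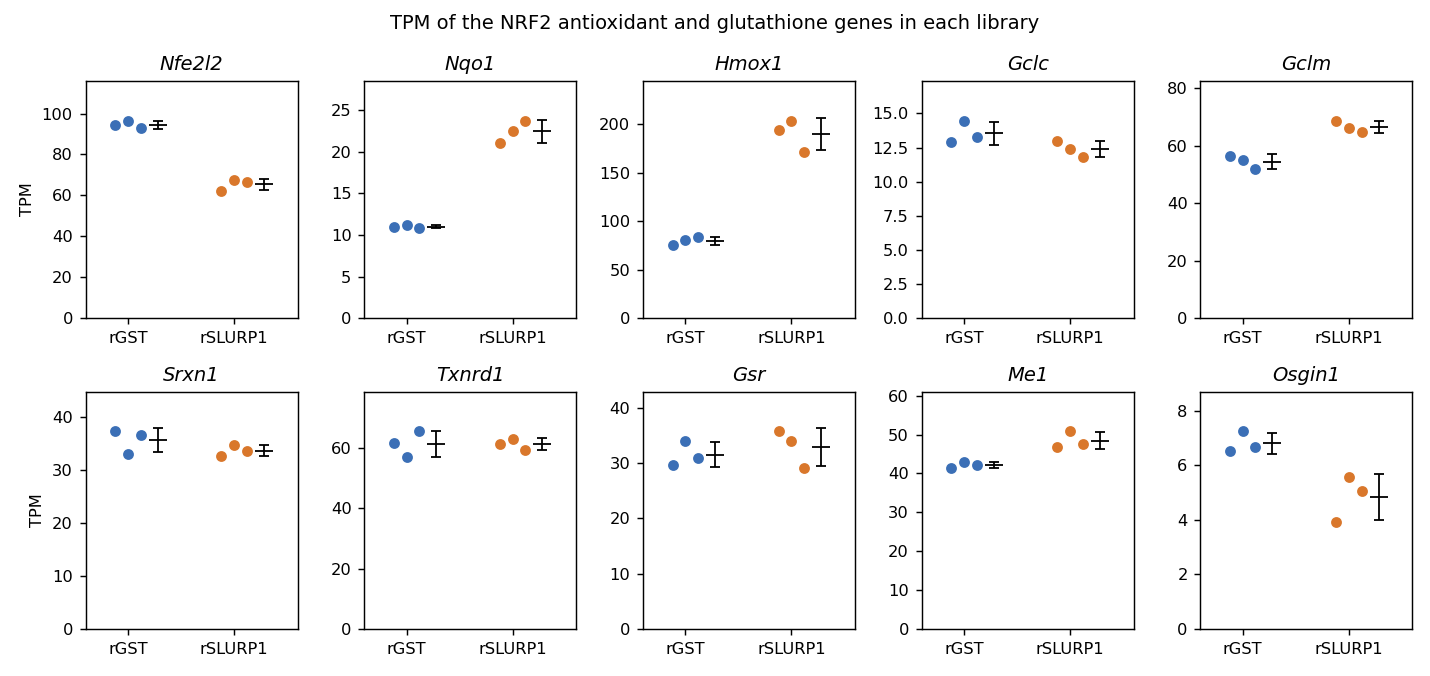
TPM of each of the 10 genes (y axis from 0, own scale per panel) in the 3 rGST libraries (blue) and the 3 rSLURP1 libraries (orange), with the mean and SD of each group beside the points. Hmox1, Nqo1, Gclm and Me1 lie higher in every rSLURP1 library, Nfe2l2 and Osgin1 lie lower in every one, and Gclc, Srxn1, Txnrd1 and Gsr overlap.

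Since antioxidant response elements are where NRF2 acts, the start-site windows of these genes were read for their letters. RefSeq windows on GRCm38.p6, from 250 bases before to 50 bases after a start site, were matched by symbol for 7 of the 10 genes (10 windows). The core of the element, TGACNNNGC, was searched on both strands, and so was TGANTCAGC, a form close to the AP-1 site that was chosen after the windows were read. A site that fits both was counted in both. TGACNNNGC was found for 5 of the 7 genes and for 3781 of all 27025 genes with a window. TGANTCAGC was found for 3 of the 7 and for 369 of all genes (1.4%). A looser form that takes in both, TGANNNNGC, was searched too and found for 6 of the 7 and for 12174 of all genes (45.0%). Srxn1, Me1 and Osgin1 held the rarer form and Gclm, Txnrd1 and Nfe2l2 only the core. Each of these is shown with its match in capitals and at most 25 bases on either side, fewer at the edge of a window or past a start site.
Srxn1: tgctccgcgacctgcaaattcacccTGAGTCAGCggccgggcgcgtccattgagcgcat
Me1: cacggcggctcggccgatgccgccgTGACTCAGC
Osgin1: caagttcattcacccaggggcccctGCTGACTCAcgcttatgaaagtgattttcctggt
Gclm: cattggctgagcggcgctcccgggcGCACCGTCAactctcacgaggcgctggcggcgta
Txnrd1: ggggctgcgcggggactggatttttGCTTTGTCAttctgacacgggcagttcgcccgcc
Nfe2l2: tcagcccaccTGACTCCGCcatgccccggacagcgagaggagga
The Srxn1 stretch lies at chr2:152105454-152105512 (plus strand), Me1 at chr9:86695912-86695945 (minus strand) and Osgin1 at chr8:119437023-119437081 (plus strand). Gclm lies at chr3:122245398-122245456 (plus strand), Txnrd1 at chr10:82859089-82859147 (plus strand) and Nfe2l2 at chr2:75704870-75704913 (minus strand). In the capitals of Osgin1, Gclm and Txnrd1 the motif reads on the opposite strand. Nqo1 held none of these forms in its window, and its 250 bases before the start site (chr8:107403206-107403455, minus strand) are given in full for comparison.
Nqo1: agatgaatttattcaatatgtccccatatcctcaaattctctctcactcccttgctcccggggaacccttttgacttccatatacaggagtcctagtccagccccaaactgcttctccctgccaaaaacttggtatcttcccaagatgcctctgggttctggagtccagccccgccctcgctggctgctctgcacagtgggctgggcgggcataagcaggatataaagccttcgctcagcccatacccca
As deposited, having a match did not go with one direction. Genes with one were called higher (Gclm, Me1), lower (Nfe2l2, Osgin1) or not called (Srxn1, Txnrd1). With median-ratio scaling Gclm, Me1, Srxn1 and Txnrd1 were called higher, Nfe2l2 lower, and Osgin1 was not called. A missing match says only that these letters are not in this window.

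Nfe2l2 (ENSMUSG00000015839.6, chromosome 2, 75675513 to 75704641, minus strand, GRCm38), the gene of NRF2, had a TPM of 94.2, 96.6 and 92.85 in rGST replicates 1 to 3 and of 62.1, 67.5 and 66.5 in the rSLURP1 libraries. Every rSLURP1 library was lower than every rGST library. The means were 94.5 ± 1.88 and 65.4 ± 2.86 (SD, n = 3 each), and the fitted log2 fold change was -0.53 (SE 0.047, adjusted p = 5.56e-05), which is -0.20 once the median of all genes is subtracted. With 3 libraries against 3, an exact two-sided permutation test of 1 gene cannot go below p = 0.1, which Nfe2l2 and the 5 other genes without overlap reached. Libraries did not overlap in 71.4% of all tested genes (9.75% with rSLURP1 higher, 61.7% with it lower).

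The genes that control NRF2 were divided. Of 11 in a list of its inhibitors, ligase subunits and partners, all tested, 3 were higher and 5 lower as deposited, with a median log2 fold change of -0.05, where 8.66% of all tested genes were higher and 58.5% lower. Median-ratio scaling gave 6 higher and 3 lower, against 26.6% and 24.6% of all tested genes. Sqstm1, the autophagy receptor p62 that sequesters KEAP1, went from 684.8 ± 4.40 to 744.0 ± 34.8 TPM (SD, n = 3 each; log2 fold change 0.12, adjusted p = 0.0330). The call of Sqstm1 was lost when rGST replicate 1, 2 or 3 or rSLURP1 replicate 2 was left out (log2 fold changes 0.12, 0.11, 0.12 and 0.080, adjusted p = 0.0677 to 0.0902). In limma without a trend or without a filter on genes it was lost too (adjusted p = 0.0998 and 0.0764). Nfe2l1, the NRF2 relative that sustains proteasome genes, rose from 204.7 ± 14.6 to 281.0 ± 34.7 TPM (log2 fold change 0.45, adjusted p = 0.00336). Keap1 and Bach1, named after their values were seen, fell by 0.77 and 0.83 on the log2 scale. With median-ratio scaling they stayed lower, at -0.42 and -0.49. Keap1 encodes the inhibitor of NRF2 and Bach1 the repressor that competes with NRF2 at Hmox1. Keap1 had 94.45 to 104.1 TPM with rGST and 55.5 to 59.8 with rSLURP1, and Bach1 had 15.3 to 17.3 and 8.10 to 9.57. Within a library, where scaling cancels, Keap1 to Nfe2l2 TPM was 1.04 ± 0.0384 with rGST and 0.871 ± 0.0324 with rSLURP1, without overlap (exact permutation test, two-sided p = 0.1). Cul3, Maff and Mafg were not called as deposited (log2 fold changes -0.02, 0.04 and -0.05) and were called higher with median-ratio scaling (0.34, 0.39 and 0.31). Btrc, Rbx1 and Gsk3b were lower as deposited (-0.61, -0.35 and -0.29), and Mafk was higher (0.25). When scaled, Btrc stayed lower (-0.26) and Mafk higher (0.59), while Rbx1 and Gsk3b were not called.

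Hmox1 (ENSMUSG00000005413.8, chromosome 8, 75093621 to 75100589, plus strand) encodes heme oxygenase 1, which breaks heme into biliverdin, carbon monoxide and iron. It had 75.6, 80.9 and 83.5 TPM in the rGST libraries and 194.1, 203.8 and 171.2 TPM in the rSLURP1 libraries. The 2 groups were far apart, and the spread was wider with rSLURP1 (80.0 ± 4.02 and 189.7 ± 16.7 TPM, SD, n = 3 each). Its log2 fold change of 1.23 (SE 0.071, adjusted p = 7.97e-06) was the highest of the 10 and ranked 108 of the 12301 tested genes. Hmox2, the constitutive isozyme, was lower as deposited (log2 fold change -0.30, adjusted p = 0.00316), near the median of all genes, and not called with median-ratio scaling (0.06, adjusted p = 0.436). The TPM of Hmox1 relative to Hmox2 in the same library went from 1.01 ± 0.115 to 2.94 ± 0.184.

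Nqo1 (ENSMUSG00000003849.8, chromosome 8, 107388225 to 107403206, minus strand) encodes the quinone reductase that is most often read as NRF2 activity. The rGST libraries held 10.9, 11.2 and 10.8 TPM and the rSLURP1 libraries 21.0, 22.5 and 23.7 TPM, and the lowest rSLURP1 library was well above the highest rGST library. With means of 10.97 ± 0.182 and 22.4 ± 1.35 (SD, n = 3 each), the ratio of TPM was 2.04. The fitted log2 fold change, which the pseudocount of 1 draws toward 0, was 0.97 (SE 0.069, adjusted p = 1.96e-05), rank 188 of the tested genes. Hmox1 was therefore the only gene of the 10 called at a fitted fold change of 2 or more, a rule that 8.22% of all tested genes met (1.15% higher, 7.06% lower). Nqo1 to Nfe2l2 TPM rose within libraries from 0.116 ± 0.000466 to 0.343 ± 0.0124, the 2 genes having moved in opposite directions.

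Glutathione is made from glutamate, cysteine and glycine, and its first and limiting step is carried out by glutamate-cysteine ligase, a dimer of the catalytic subunit GCLC and the modifier subunit GCLM. Gclm (ENSMUSG00000028124.15, chromosome 3, 122245557 to 122270732, plus strand) had 56.6, 55.1 and 51.8 TPM with rGST and 68.8, 66.0 and 64.7 with rSLURP1. The lowest treated library thus lay above the highest control, for a log2 fold change of 0.28 (SE 0.051, adjusted p = 0.00185). Gclc (ENSMUSG00000032350.9, chromosome 9, 77754535 to 77794485, plus strand) had 12.9, 14.5 and 13.25 TPM with rGST and 12.96, 12.4 and 11.8 with rSLURP1. These overlapped, and the log2 fold change of -0.12 had a 95% interval from -0.29 to 0.06 (adjusted p = 0.205). The modifier subunit therefore gained on the catalytic subunit. Gclm to Gclc TPM was 4.39, 3.81 and 3.91 in the rGST libraries and 5.31, 5.31 and 5.48 in the rSLURP1 libraries (log2 difference 0.41, exact permutation test, two-sided p = 0.1). A processed pseudogene, Gm6061, lies within Gclm on the same strand and reached 6.50 TPM at most. Gsr (ENSMUSG00000031584.16, chromosome 8, 33652523 to 33698163, plus strand), the reductase that returns oxidized glutathione to its thiol form, had 29.6, 33.9 and 30.9 TPM with rGST and 35.7, 34.0 and 29.1 with rSLURP1. The rSLURP1 libraries of Gsr spanned the rGST range on both sides, and its log2 fold change of 0.06 (95% interval -0.15 to 0.27, adjusted p = 0.562) was not distinguished from 0.

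**Figure D2:**
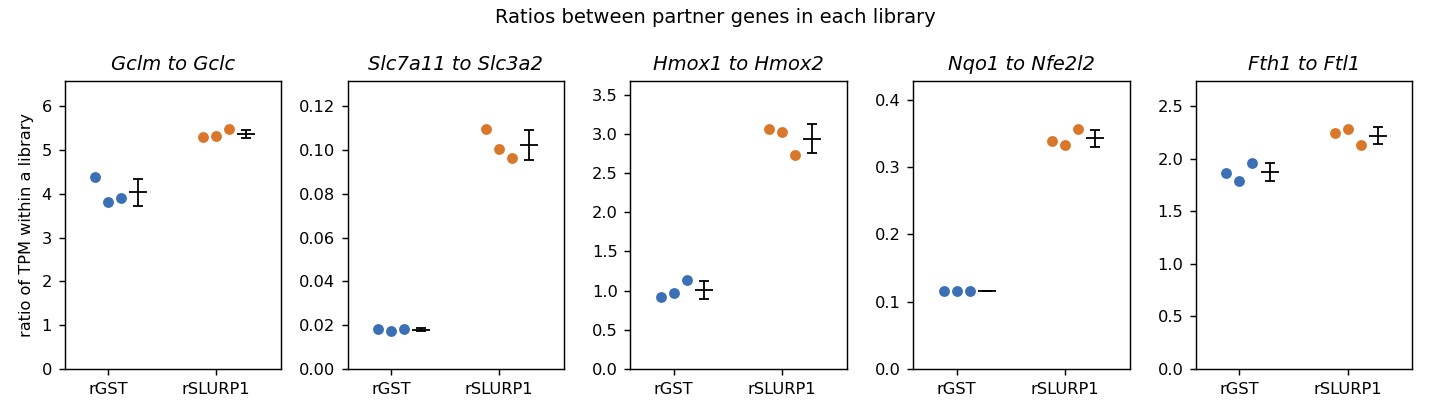
Ratio of the TPM of a pair of genes within each library (y axis from 0), for the subunits of glutamate-cysteine ligase, of the cystine importer, the heme oxygenases, Nqo1 to Nfe2l2 and the ferritin chains, with mean and SD beside the points. In all 5 pairs every rSLURP1 library (orange) lies above every rGST library (blue), as in Gclm to Gclc with 5.31 to 5.48 against 3.81 to 4.39. The pairs were chosen after their values were seen, so their shared direction is no finding. Keap1 to Nfe2l2, not drawn, was lower with rSLURP1 (log2 difference -0.25). How often other pairs separate was not tested.

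Neither gene of the thioredoxin branch passed the test. Txnrd1 (ENSMUSG00000020250.10, chromosome 10, 82833951 to 82897712, plus strand), the cytosolic thioredoxin reductase, had 61.4, 56.9 and 65.4 TPM with rGST and 61.3, 63.0 and 59.35 with rSLURP1. Its log2 fold change was 0.00 with a 95% interval from -0.14 to 0.14 (adjusted p = 0.991), the narrowest interval among the 4 genes not called. Srxn1 (ENSMUSG00000032802.8, chromosome 2, 152105516 to 152111376, plus strand), sulfiredoxin, which repairs overoxidized peroxiredoxins, had 37.25, 33.0 and 36.6 TPM with rGST and 32.6, 34.7 and 33.6 with rSLURP1. The groups overlapped here too, with a log2 fold change of -0.08 (95% interval -0.23 to 0.06, adjusted p = 0.280).

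Me1 (ENSMUSG00000032418.15, chromosome 9, 86581371 to 86695953, minus strand), the cytosolic malic enzyme that yields NADPH, had 41.4, 43.0 and 42.2 TPM in the rGST libraries and 46.9, 50.9 and 47.6 TPM in the rSLURP1 libraries. It was higher in all of the latter (log2 fold change 0.20, SE 0.050, adjusted p = 0.0100). Pseudogenes Gm7049 (98.5% identical over 1638 bases, at most 3.91 TPM) and Gm7329 (99.0% over 210 bases, at most 33.5 TPM) share sequence with Me1, so the division of reads among them is uncertain. Osgin1 (ENSMUSG00000074063.10, chromosome 8, 119434124 to 119446256, plus strand), an oxidative stress-induced growth inhibitor, was the lowest of the 10, with 6.53, 7.25 and 6.66 TPM in rGST and 3.93, 5.58 and 5.06 TPM in rSLURP1 libraries. Its log2 fold change was -0.43 (SE 0.126, adjusted p = 0.0188, or -0.10 with the all-gene median subtracted). Without rGST replicate 2 the call was lost (log2 fold change -0.39, adjusted p = 0.0603), which leaves Nfe2l2 as the 1 gene called lower.

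After median-ratio scaling of the libraries, the median of all tested genes moved from -0.33 to 0.01 and the split changed to 8 of the 10 higher and 1 lower, Nfe2l2. By that scaling 26.6% of all tested genes were higher and 24.6% lower, in place of 8.66% and 58.5% (51.2% in either direction). At 2-fold or more, 6.29% were called, 2.55% higher and 3.74% lower, and Hmox1 and Nqo1 were both among the higher. Hmox1 and Nqo1 had log2 fold changes of 1.59 and 1.31, Gclm and Me1 of 0.64 and 0.55, and Gsr, Txnrd1, Srxn1 and Gclc of 0.41, 0.36, 0.27 and 0.22. The last of these just passed the test (Gclc, adjusted p = 0.0422). Nfe2l2 stayed lower at -0.17 (adjusted p = 0.0103), whereas Osgin1 at -0.12 was no longer called. This scaling shifts all genes by nearly the same amount, so the order of the 10 genes could hardly change. Of the 10, 8 lay above the median of all tested genes. Hmox1, Nqo1, Gclm and Me1 were called higher, and Nfe2l2 lower, as deposited and in all 16 alternative fits.

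**Figure D3:**
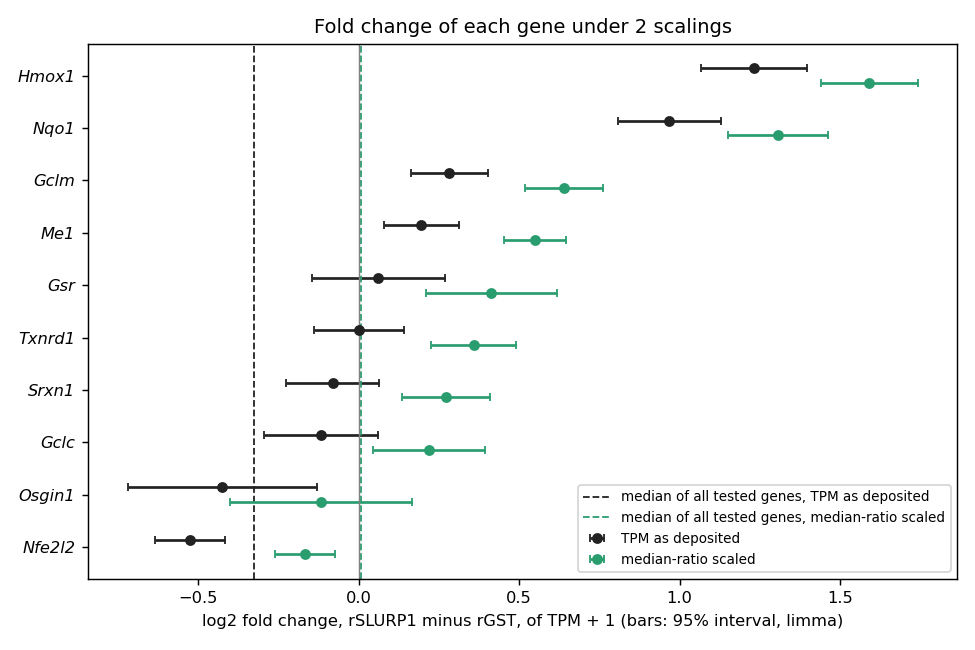
Log2 fold change of each of the 10 genes, rSLURP1 minus rGST, on TPM + 1 (x axis), as deposited (black) and after median-ratio scaling (green), with 95% intervals from limma. Dashed lines give the median of all tested genes, -0.33 and 0.01. Gsr, Txnrd1, Srxn1 and Gclc cross 0 as deposited and lie above it when scaled.

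The levels, which TPM makes comparable between genes, were reordered by the treatment. In rGST libraries Nfe2l2 was highest, followed by Hmox1, Txnrd1, Gclm, Me1, Srxn1, Gsr, Gclc, Nqo1 and Osgin1, and only Srxn1 and Gsr overlapped with a neighbor. In rSLURP1 libraries Hmox1 was first by a wide margin, Gclm (64.7 to 68.8 TPM) overlapped with Nfe2l2 (62.1 to 67.5 TPM), Nfe2l2 overlapped with Txnrd1 (59.35 to 63.0 TPM), and Srxn1 again overlapped with Gsr. Nqo1 passed Gclc. Over the 6 libraries, the profiles most alike were those of Nqo1 and Hmox1 (Pearson r = 0.98 of log2(TPM + 1)), and Me1 and Gclm were also nearest to Hmox1 (r = 0.95 and 0.94). Nfe2l2 was nearest to Osgin1 (r = 0.92). These values describe 6 libraries that share 2 treatments. Srxn1 and Txnrd1 were nearest to each other at r = 0.63, and Gclc was nearest to Nfe2l2 (r = 0.68), Gsr to Gclc (r = 0.43).

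Other genes were taken from 7 lists on NRF2 control, glutathione, thioredoxin, NADPH, conjugation, iron and superoxide. Whether NRF2 drives them in these cells was not tested. The lists held 133 genes, of which 112 were tested. Of these, 31 were higher and 50 lower, where 8.66% of all tested genes were higher and 58.5% lower. Median-ratio scaling gave 58 higher and 19 lower, against 26.6% and 24.6% of all tested genes. Their median log2 fold change was -0.12, and 67.0% of them lay above the median of all tested genes.

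The genes of glutathione synthesis and use held the largest increases. Of 39 listed, 28 were tested, 9 were higher and 10 lower as deposited, and the median log2 fold change was 0.04. Median-ratio scaling gave 18 higher and 2 lower. The shares of all tested genes were 8.66% higher and 58.5% lower, then 26.6% and 24.6%. Slc7a11, which encodes the cystine carrier xCT, had 3.02, 3.04 and 3.32 TPM with rGST and 27.55, 26.8 and 24.0 with rSLURP1, a ratio of 8.35. It ranked 17 of all tested genes (log2 fold change 2.71, SE 0.085, adjusted p = 5.60e-07). Its partner chain Slc3a2 was higher too, but by 0.54 on the log2 scale, and Slc7a11 to Slc3a2 TPM went from 0.0179 ± 0.000683 to 0.102 ± 0.00668. Chac1, which degrades glutathione, rose as well, from 7.74 ± 0.465 to 40.75 ± 4.05 TPM (log2 fold change 2.25, adjusted p = 1.51e-06). Both the import of the limiting amino acid and the breakdown of the product thus had higher mRNA. Gss, the second enzyme of synthesis, was lower (log2 fold change -0.40, adjusted p = 0.0031) as deposited, and not called at -0.06 with median-ratio scaling.

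Transferases and peroxidases of glutathione did not follow 1 direction. Gsta1 was listed at 0, 0.600 and 2.74 TPM with rGST and at 14.1, 10.6 and 11.2 with rSLURP1 (log2 fold change 2.83, SE 0.428, adjusted p = 7.69e-04). The size of this change depends on the pseudocount, and with 0.1 in place of 1 it was 4.36. Gsta1 shares 96.6% to 99.5% of its sequence with 3 other genes, which makes its share of reads uncertain. The membrane-bound transferase Mgst1 rose from 375.9 ± 9.03 to 593.5 ± 27.7 TPM (log2 fold change 0.66, adjusted p = 1.42e-05), and Mgst2, Mgst3, Gsta4 and Gsto1 were also called higher. Gstm2, Gstm5 and Gstz1 were called lower as deposited (log2 fold changes -0.29, -0.26 and -0.31). With median-ratio scaling these transferases were not called (0.07, 0.10 and 0.04). Gpx8, a peroxidase of the endoplasmic reticulum, fell from 123.0 ± 11.3 to 56.7 ± 3.01 TPM (log2 fold change -1.10, adjusted p = 1.50e-05). Gstp1, the most abundant of the list, had 784.9 ± 32.5 and 718.6 ± 18.4 TPM. It was called lower as deposited (log2 fold change -0.13, adjusted p = 0.0271) and higher with median-ratio scaling (0.24, adjusted p = 0.00171). The lower call of Gstp1 was lost without rGST replicate 3 or rSLURP1 replicate 1 or 3 (log2 fold changes -0.093, -0.13 and -0.11, adjusted p = 0.0543 to 0.0842). Gpx1 and Gpx4, which reduce hydrogen peroxide and lipid peroxides, were not called as deposited (log2 fold changes 0.12 and 0.04) and were called higher with median-ratio scaling (0.49 and 0.41).

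**Figure D4:**
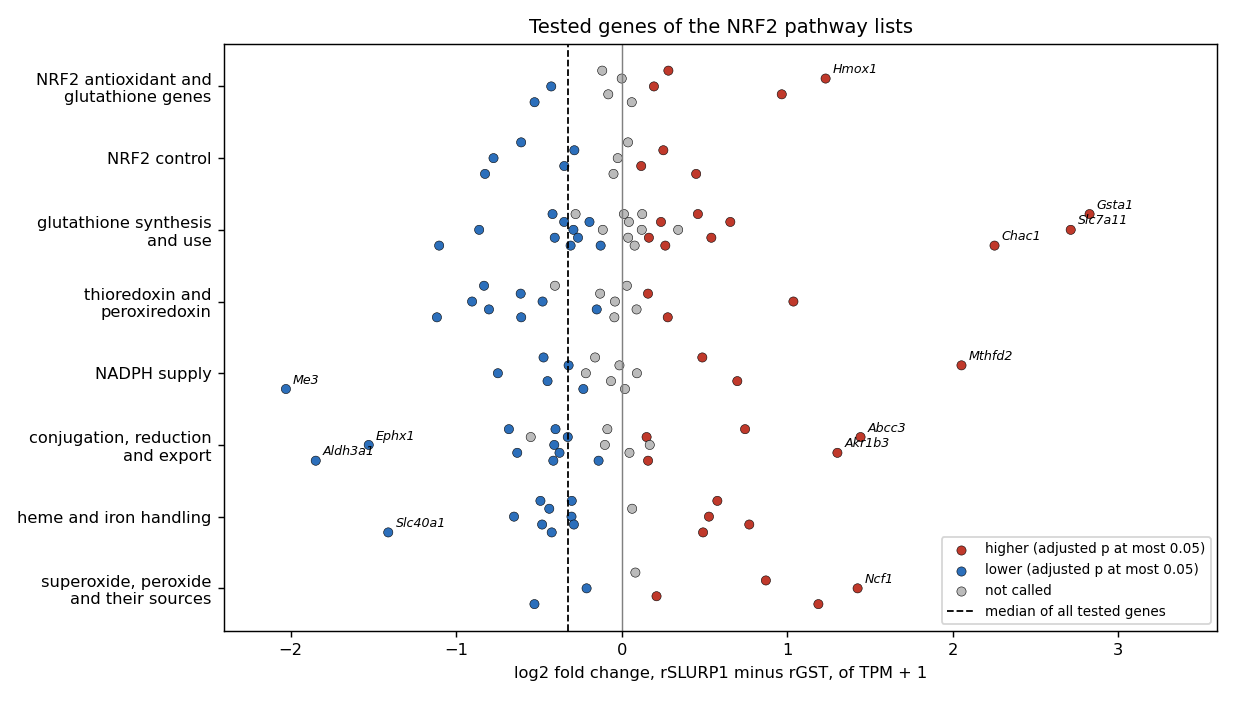
Log2 fold change, rSLURP1 minus rGST, on TPM + 1 (x axis) of the tested genes in the 10-gene group and in each of 7 other lists (rows). Points are red or blue where the gene was called higher or lower and grey where it was not, the dashed line marks the median of all tested genes (-0.33), and genes beyond 1.2 in size are named. Slc7a11 and Gsta1 lie farthest to the right and Me3 (-2.03) farthest to the left.

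Among 17 thioredoxin and peroxiredoxin genes, 3 were higher and 8 lower as deposited, with a median log2 fold change of -0.15. Median-ratio scaling gave 9 higher and 5 lower. By the same rules 8.66% of all tested genes were higher and 58.5% lower, or 26.6% and 24.6% when scaled. Sesn2, a sestrin induced by amino acid and oxidative stress, rose from 12.7 ± 0.961 to 27.05 ± 1.76 TPM (log2 fold change 1.04, adjusted p = 2.82e-05), while Sesn1 and Sesn3 were called lower. Txnrd3, the thioredoxin-glutathione reductase, fell from 14.8 ± 0.964 to 6.30 ± 0.549 TPM (log2 fold change -1.12, adjusted p = 3.73e-05), and mitochondrial Txnrd2 was lower by 0.90 on the log2 scale, whereas Txnrd1 was not called. The 2 most abundant genes, Prdx2 and Prdx5, were not called (log2 fold changes -0.04 and -0.13), though Prdx5 passed the test as lower without rSLURP1 replicate 2 (-0.17, adjusted p = 0.0335). They were called higher with median-ratio scaling, at 0.32 and 0.23.

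For NADPH, 3 of 15 genes were higher and 6 lower as deposited, with a median log2 fold change of -0.16. Median-ratio scaling turned this into 7 higher and 2 lower (median 0.19). Over all tested genes the shares were 8.66% higher and 58.5% lower, and 26.6% and 24.6% when scaled. Mthfd2, the mitochondrial folate dehydrogenase, rose from 21.45 ± 1.35 to 92.3 ± 7.92 TPM (log2 fold change 2.05, adjusted p = 1.12e-06), and Me3, the mitochondrial malic enzyme, fell from 22.6 ± 3.05 to 4.77 ± 0.307 TPM (log2 fold change -2.03, adjusted p = 5.28e-06). The malic enzymes therefore went apart, Me1 up, Me3 down and Me2 not called (log2 fold change -0.22, adjusted p = 0.0587). In the pentose phosphate pathway Taldo1 was higher by 0.70 on the log2 scale, G6pdx and Pgd were not called as deposited (0.09 and -0.01) but higher with median-ratio scaling (0.45 and 0.35), and Pgls was lower as deposited (-0.23) but higher with median-ratio scaling (0.13). Tkt and Rpia were lower as deposited (-0.32 and -0.45) and not called with median-ratio scaling (0.04 and -0.10). Rpe was not called by either scaling (-0.06 and 0.28). Idh2, the most abundant, had 182.8 ± 1.57 and 185.5 ± 7.55 TPM and was not called as deposited (0.02), but was called higher with median-ratio scaling (0.38).

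Among enzymes of conjugation and reduction, the single genes Aldh3a1 and Ephx1 had some of the clearest decreases. Of 22 listed, 20 were tested, 5 were higher and 10 lower (8 and 4 with median-ratio scaling). In the whole tested set, calls ran to 8.66% up against 58.5% down before scaling, and to 26.6% against 24.6% after it. The median log2 fold change of the list, -0.23, lay above the -0.33 of all tested genes. Aldh3a1, an aldehyde dehydrogenase, had 457.0, 460.6 and 475.4 TPM with rGST and 121.4, 134.0 and 129.6 with rSLURP1. The rSLURP1 mean was 0.28 of the rGST mean (log2 fold change -1.85, SE 0.045, adjusted p = 2.30e-07). Ephx1, microsomal epoxide hydrolase, fell to 0.34 (log2 fold change -1.53, adjusted p = 1.79e-06). Akr1b3, aldose reductase, rose from 137.2 ± 6.80 to 341.2 ± 35.1 TPM (a ratio of 2.49, adjusted p = 7.96e-06), and Abcc3, an exporter of conjugates, from 3.68 ± 2.36 to 10.8 ± 2.14 (log2 fold change 1.44, adjusted p = 0.00668). Nqo2, the relative of Nqo1, was not called (log2 fold change -0.10). Aldh2, the most abundant, was lower as deposited (-0.14) and higher with median-ratio scaling (0.22).

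Of the 14 tested genes of heme and iron handling, 4 rose and 9 fell as deposited, which became 5 and 2 with median-ratio scaling. Their median log2 fold change of -0.30 was close to that of all tested genes (-0.33). As deposited, 8.66% of all tested genes were higher and 58.5% lower, against 26.6% and 24.6% when scaled. The ferritin chains that store iron were called higher and were the most abundant genes of all lists. Fth1 had 6265, 6098 and 6827 TPM with rGST and 10598, 11479 and 10663 with rSLURP1 (log2 fold change 0.77, adjusted p = 2.08e-05), and Ftl1 rose from 3417 ± 62.7 to 4928 ± 169 TPM (0.53, adjusted p = 2.29e-05). Blvrb, a biliverdin reductase, and Tfrc, the transferrin receptor that imports iron, were the other two called higher (0.58 and 0.49). Slc40a1, ferroportin, the exporter of iron, fell from 23.9 ± 2.24 to 8.43 ± 1.65 TPM (log2 fold change -1.41, adjusted p = 7.08e-05). Ftl1 has near-identical copies, of which Ftl1-ps1 reached 102.6 TPM.

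Of 14 genes that remove or make superoxide and peroxide, 7 were tested. As deposited 4 were higher and 2 lower, where 8.66% of all tested genes were higher and 58.5% lower. Median-ratio scaling gave 5 higher and 1 lower, against 26.6% and 24.6% of all tested genes. Mitochondrial Sod2 rose from 47.7 ± 2.74 to 110.1 ± 6.24 TPM (log2 fold change 1.19, adjusted p = 4.61e-06) and cytosolic Sod1 from 797.1 ± 12.6 to 923.1 ± 32.6 (0.21, adjusted p = 0.00168). Cat, catalase, was lower as deposited (-0.21) and not called with median-ratio scaling (0.14). Ncf1, a subunit of the phagocyte NADPH oxidase, rose from 2.23 ± 0.251 to 7.80 ± 1.98 TPM (log2 fold change 1.43, adjusted p = 2.13e-04) and its catalytic partner Cybb was higher (1.13 to 2.12 TPM with rGST, 2.96 to 4.04 with rSLURP1), while Cyba, which the complex needs, was listed at 0 throughout. Xdh, xanthine oxidoreductase, fell by 0.53 on the log2 scale.

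Libraries of the same treatment were alike (Pearson r of log2(TPM + 1) from 0.983 to 0.986 across tested genes, which are not independent replicates), and r was 0.941 to 0.950 between treatments. Of 10 epithelial markers only Krt8 and Krt18 were tested, with Epcam, Krt5, Krt14 and Cldn3 listed at 0, and the summed level was 194 to 201 TPM with rGST and 198 to 201 with rSLURP1, nearly all from Krt18. So the labelled mammary tumor cell lacked most of its epithelial markers in both treatments. The summed level of 10 fibroblast and mesenchymal markers went from 2252 to 2479.5 TPM with rGST down to 725.5 to 779.5 with rSLURP1, and all 6 that were tested fell. Vim carried most of the sum and fell to 0.53 of its rGST level, whereas Dcn went from 580.7 to 5.46 TPM, Lum from 176.7 to 0.907 and Col1a1 from 8.78 to 0.327 (means, n = 3 each). In bulk RNA, fewer cells of a type and less RNA per cell cannot be told apart, and the part of this change in the values of the NRF2 genes was not tested. Immune and endothelial markers summed to at most 0.46 TPM.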

How the data were processed

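RNAseq of D2A1 in 3D Matrigel culture was analysed in 6 libraries, grouped by sample title. The authors trimmed reads with Cutadapt (1.18 in the submitters' processing notes), aligned them to mm10 with STAR (2.5.2b) and quantified genes with RSEM (1.3.3; the study's methods give other versions of Cutadapt and RSEM, and GENCODE M12), and deposited TPM, 1 column per library, unpooled. The labels name a TruSeq mRNA kit, the study's methods Smart-seq2, and strand is not stated. TPM keeps no read depth, so counting error is unknown and the spread of 3 libraries per treatment sets the precision.

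Log2(TPM + 1) was tested with limma 3.58.1 (R 4.3.3; trend, two-sided, no block) for the 12301 genes at a TPM of 1 or more in 3 or more libraries, with Benjamini-Hochberg adjustment over all of them. DESeq2, which the submitters' processing notes list and the study's methods name for sorted cells, needs counts and was not applied. Members and lists were chosen with earlier results of these data known. Named were the 10 genes, and from each of the 7 pathway lists the 2 most abundant genes and all called at 2-fold or more. Other genes, and the ratios between genes, were chosen after their values were seen. Coordinates, transcript lengths and GC content are from GENCODE M21 (GRCm38), near-identical transcripts from BLAST (95% identity or more over 200 bases or more), promoters from RefSeq. Of the rows named Fth1, ENSMUSG00000024661.6 was used. The limma fit, and no other step, was tested on simulated data. Figures were made with matplotlib 3.10.9.

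Replicate numbers did not pair the libraries: after group means were subtracted, libraries with one number correlated at -0.061 to -0.034 across genes. Alternatives were a pseudocount of 0.1, other filters, median-ratio and quantile scaling, mitochondrial genes left out, no trend, the replicate number as a block, a loess correction (span 0.3) for transcript length and GC content with and without the block, and each library left out in turn.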

Additional observations from a re-analysis of the deposited data

How the results depend on the processing

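Scaling moved the calls most. As deposited, 1065 of the tested genes were higher and 7200 lower. The numbers were 3274 and 3029 with median-ratio scaling, 3111 and 2905 after quantile normalization, 3320 and 2690 after correcting for length and GC content, and 3095 and 2468 when the replicate block was added to this correction. Of the 10 NRF2 genes, 8 were then higher and 1 lower in the first 3 of these fits and 7 and 1 in the last. Over the 7 lists, 58 were higher and 19 lower, then 53 and 22, 57 and 21, and 55 and 19, in the same order. Median-ratio scaling moves the median of all tested genes from -0.33 to 0.01 by construction.

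In that order, Gclc reversed to 0.22, 0.28, 0.27 and 0.27 on the log2 scale and Srxn1 to 0.27, 0.27, 0.30 and 0.30. Txnrd1 passed the threshold at 0.36, 0.29, 0.40 and 0.40, and Gsr at 0.41, 0.43, 0.42 and 0.42. Osgin1 was no longer called, at -0.12, -0.033, -0.11 and -0.11, nor was it without a filter (-0.43, adjusted p = 0.0675 in limma), where 1 of the 10 was lower. Without a filter the median of the 10 above that of all genes was 0.13 and that of the lists 0.0020, in place of 0.36 and 0.21 (the cause was not tested).

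Leaving out each library in turn gave 7329 to 7891 called genes, 4 of the 10 higher and 1 to 2 lower. Txnrd1 ranged from -0.050 to 0.049, reversing without rGST replicate 2 and without rSLURP1 replicates 1 or 2, and Osgin1 from -0.51 to -0.31. Under the replicate block 7962 genes were called, 4 of the 10 genes were higher and 2 lower, and over the lists 27 were higher and 50 lower. The block changed no call of the 10 genes, but Sqstm1 and Gstp1 were no longer called (adjusted p = 0.0535 and 0.0570 in limma). Without a pairing of libraries in the labels, it describes only a shared number.

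Of the genes named from the lists, Gstp1 reversed to 0.24 and Aldh2 to 0.22 with median-ratio scaling, and Aldh2 to 0.30 in both fits corrected for length and GC content. Prdx2 reversed to 0.32, 0.038 and 0.23 (median-ratio, quantile, and the correction with or without the block) and ranged from -0.066 to 0.0082 as libraries were left out, reversing without rSLURP1 replicate 1. Prdx5 reversed to 0.23 and 0.15 and Pgls to 0.13 and 0.13 with median-ratio scaling and the correction, block or not. Idh2 became called higher at 0.38, 0.23 and 0.30 (median-ratio, quantile, and the correction with or without the block), and as libraries were left out it ranged from -0.011 to 0.047, reversing without rSLURP1 replicate 2. A pseudocount of 0.1 moved Gsta1 from 2.83 to 4.36, Slc7a11 from 2.71 to 3.02 and Ncf1 from 1.43 to 1.74. Over these genes, 408 values kept direction and side of the threshold, 5 became stronger, 18 weaker and 16 reversed, and over the 10 NRF2 genes 135, 8, 6 and 11. Read depth is unknown, so how far it limits Osgin1, Ncf1, Gsta1 and other genes of low TPM could not be assessed.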
